A study of Mus musculus with 18 samples.

Results

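The Oct4VP2 course followed mouse embryonic stem cells that carry a fusion of Oct4 with the VP16 activation domain as leukaemia inhibitory factor (LIF) was withdrawn. Its members are the 6 arrays, of 18 in the series, whose titles begin with Oct4 VP2. They form 3 groups of 2 arrays: 24 h after plating with LIF, 48 h after LIF was withdrawn and 120 h after it was withdrawn. Per the labels, the cells are of strain 129/Ola and derive from ZHBTc4, in which Oct4 comes from a transgene that tetracycline shuts off. All 3 groups received tetracycline to shut it off, and a construct written as oct4-vp16 for the 24 h arrays and moct4-vp16 for the others had been introduced by electroporation and random integration. All cultures were plated at 250000 cells a flask in LIF, tetracycline and puromycin at 2 ug/ml. For the cultures without LIF the medium was replaced 24 h after plating, and those sampled at 120 h received fresh medium once more. RNA without LIF was therefore also taken later after plating, and the loss of LIF and the time in culture cannot be told apart. The series names 2 independent clones of each line as its replicates, so each group here stands on 2 clones. The other 12 arrays serve only for comparison, 6 for each of 2 lines at the same 3 times, plated at 200000 cells. One line is ZHBTc4 itself, whose labels mention neither tetracycline nor puromycin. The other, called Oct4, also derives from ZHBTc4, and its arrays without LIF are labelled with a moct4 construct, tetracycline and puromycin, while those with LIF are labelled as a knock-in with no mention of either agent.

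Oct4 is a homeodomain transcription factor that embryonic stem cells need for pluripotency, and cells that lose it turn towards trophoblast. LIF acts through its receptor and the STAT3 pathway to hold mouse embryonic stem cells undifferentiated, and cultures without it differentiate over several days. VP16 is a strong activation domain from a viral protein, and joining it to a transcription factor is a usual way to force that factor to activate its targets.

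Each array compared Cy3-labelled RNA of one culture with a Cy5-labelled pool of RNA from mouse cell lines. Values below are the log2 of Cy3 over Cy5, and so of the culture over the pool. Of 42006 probes of 60 bases, 31727 were tested: each had Cy3 well above background on the pair of arrays of 1 or more of the 9 groups. Between 67% and 74.1% of the probes were well above background on an Oct4VP2 array, and r between the replicates of a time, across probes, was 0.949 to 0.968. A call needed both an adjusted p under 0.05 in limma (Benjamini-Hochberg) and a difference of at least 2-fold, the threshold the series states. The deposited files give the probes design numbers and no genes. Probes were placed here by an exact match of at least 30 bases to one of 32851 windows around RefSeq gene starts (GRCm38.p6), which put 498 probes at 1 place in those windows. Of these, 307 lay on the strand of a single gene, against 52 that lay only on the opposite strand of one. The test covered 223 of the named probes, in 215 genes. Other copies of a sequence outside the windows were not searched, and exons were not resolved. Of 553 genes in 22 lists of pluripotency, lineage and other markers, 4 were reached by a tested probe, so the cell type on the label, the Oct4 constructs and the markers of differentiated cells were not checked here.

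The sequences of 6 placed probes carry the gene results below. Each line gives 30 bases of the probe, 5′ to 3′, read on the strand of the gene it is named for.
Bcl11a: ttgtgatgttttctgacagtagcctccaag
Homer2: ggccctcgggtgccttctgctgcgtggcat
Lamb2: ccctagggcctagccttgtcgccaagcact
Plet1: ctactagcagatttccactgtgcccagacc
Tmc4: gccctctgccacccgaatgctacactctca
Zbtb8a: ccggtgaatgggtttctcctactgacttag
In GRCm38.p6 the Bcl11a stretch lies at chr11:24172868-24172897 on the plus strand, and the matched part of the probe ends 631 bases before the end of the gene. The Lamb2 stretch lies at chr9:108490426-108490455 on the plus strand, with 46 bases from the match to the gene's end. The Plet1 stretch lies at chr9:50505002-50505031 on the plus strand, 584 bases before the end by the same measure. On the minus strand lie Tmc4 at chr7:3665824-3665853, with 40 bases to the end of the gene, and Zbtb8a at chr4:129354064-129354093, with 402. Homer2, also on the minus strand at chr7:81609895-81609924, is the one of these 6 that lies deeper in its gene, 9395 bases from the end.

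At 48 h without LIF, 524 probes were higher in Oct4VP2 than at 24 h with LIF (1.65% of 31727) and 434 were lower (1.37%). Of the 223 placed probes, those in Bcl11a and Gm3194 rose and the one in Lamb2 fell, 1.35% of them against 3.02% of all probes tested. Bcl11a encodes a zinc finger transcription factor known for silencing fetal globin genes and for its part in B lymphocyte development. Its log2 ratio was -0.54 and -1.39 on the 24 h arrays, 2.14 and 1.73 at 48 h, and 1.40 and 0.68 at 120 h. All arrays without LIF lay above both arrays with it. The change was 2.90 at 48 h (SE 0.30, limma adjusted p = 0.00061), and 2.01 at 120 h (SE 0.30, limma adjusted p = 0.0014). Lamb2 encodes the laminin beta 2 chain of basement membranes. It stood at -1.75 and -1.59 with LIF, at -2.91 and -2.90 at 48 h, and at -2.07 and -2.39 at 120 h. The 48 h arrays were the lowest of the 6 and the 24 h arrays the highest, with no overlap between groups. Lamb2 fell by 1.24 at 48 h (SE 0.19, limma adjusted p = 0.0046). At 120 h its difference from 24 h was -0.56 (limma adjusted p = 0.054), which did not pass. Gm3194, a predicted gene of a family with near-identical copies, so that its probe may read more than one gene, rose by 1.64 at 48 h (SE 0.32, limma adjusted p = 0.014) and by 1.90 at 120 h (SE 0.32, limma adjusted p = 0.0024). The 48 h call of Gm3194 was lost without replicate 1 with LIF or without either 48 h array.

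**Figure D1:**
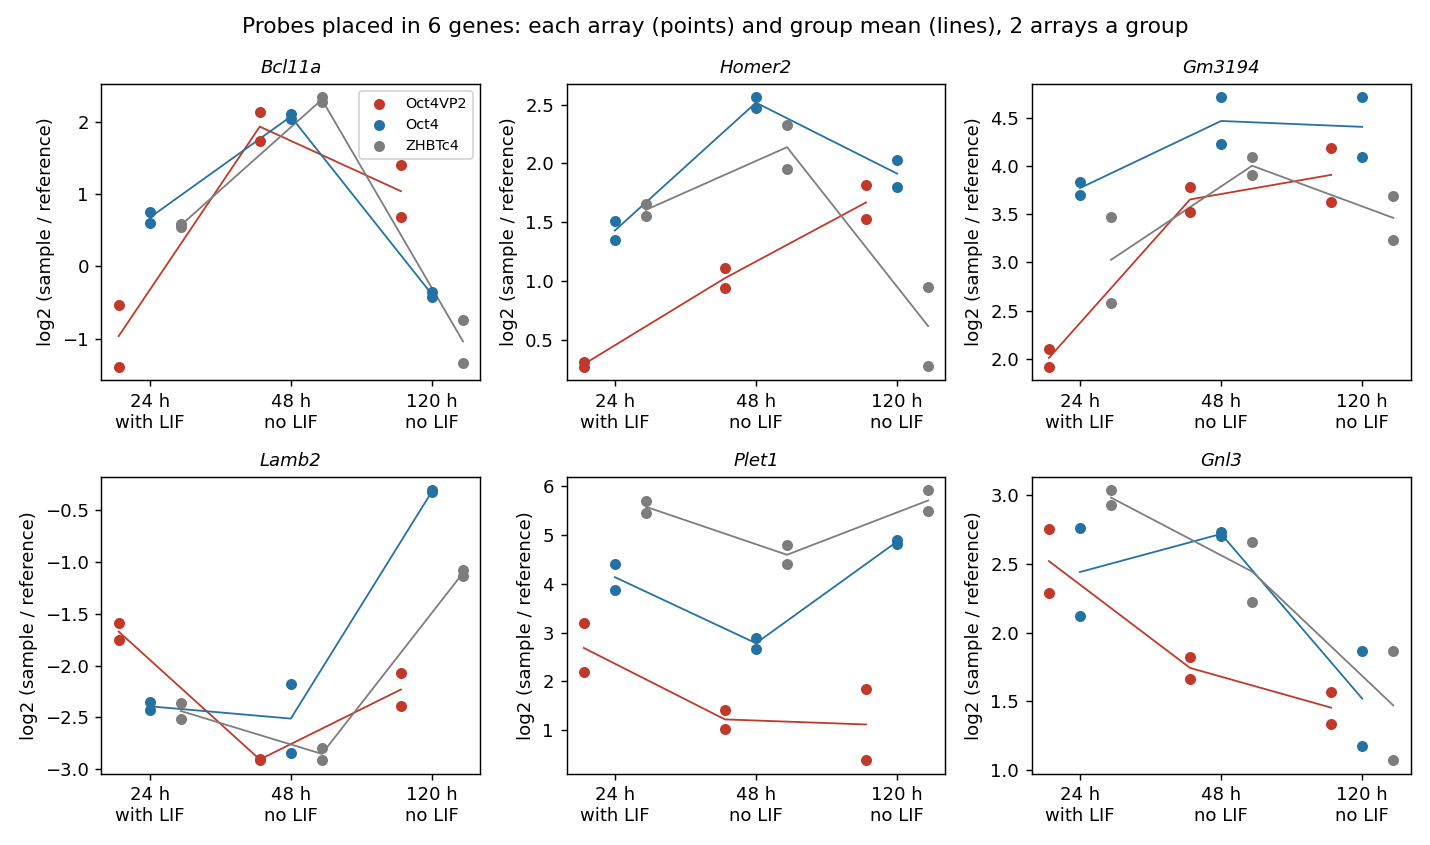
Log2 ratio of sample over reference (vertical axis) for probes placed in 6 genes, at the 3 times (horizontal axis), in Oct4VP2, Oct4 and ZHBTc4. Points are single arrays and lines join the means of 2 arrays. Bcl11a rose at 48 h in every line and at 120 h stood above its 24 h level in Oct4VP2 and below it in the other lines, while Lamb2 at 120 h was highest in Oct4 (-0.33 and -0.31).

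Outside the placed genes, the 2 probes with the largest fall at 48 h were Z00024649-1 and Z00025680-1. Z00024649-1 stood at 1.98 and 2.63 with LIF and at -2.72 and -1.87 at 48 h, where neither array was well above background. It was at least 10.0-fold lower at 48 h, a bound taken between the mean measured level and the lowest signal above background (limma adjusted p = 0.0013 for the measured change of -4.60). Z00025680-1 was well above background on all 6 arrays. It stood at 2.18 and 2.73 with LIF, at -1.69 and -1.65 at 48 h and at -1.0 and -1.15 at 120 h, so that both times without LIF lay far below the arrays with it. It fell by 4.12 at 48 h (SE 0.28, limma adjusted p = 6.7e-05) and by 3.53 at 120 h (SE 0.28, limma adjusted p = 5.2e-05). In Oct4 and ZHBTc4 the same probe rose at 120 h, by 1.01 and by 1.85. Those lines started lower, with 24 h means of -0.68 and -0.61 against 2.46 in Oct4VP2. At 48 h the means were -1.31 in Oct4, -1.22 in ZHBTc4 and -1.67 in Oct4VP2. The probes with the largest rise at 48 h, Z00065548-1 and Z00022073-1, were not well above background on either array with LIF. Z00065548-1 rose at least 6.23-fold and Z00022073-1 at least 2.92-fold by that bound, with measured log2 changes of 4.83 (limma adjusted p = 0.037) and 4.54 (limma adjusted p = 0.0015). Both calls were lost after normexp and loess, and that of Z00065548-1 also when replicate 1 with LIF or either 48 h array was left out. In all, 79 of the 524 higher probes were not well above background on either array with LIF, 41 of the 434 lower ones on neither array at 48 h, and 12 called probes on no array of either group.

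The 48 h count leaned on its single arrays and on the spread shared with the other lines. Leaving out replicate 1 at 48 h left 495 probes in all, and leaving out replicate 2 left 486, against 958. With the 6 Oct4VP2 arrays alone, 66 probes were higher and 66 lower. None of the 48 h calls of Bcl11a, Lamb2 and Gm3194 was made then (limma adjusted p = 0.072 for Bcl11a and 0.07 for Lamb2). In the Cy5 channel, where the same reference RNA was on every array, the same test called 9 probes higher and 31 lower.

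By 120 h without LIF, 1977 probes were higher than at 24 h with it (6.23% of those tested) and 1291 lower (4.07%). The SD of the log2 change across the tested probes was 0.81, against 0.59 at 48 h. The Cy5 channel gave 65 higher and 47 lower calls. Among the placed probes, 6 rose and 9 fell, 6.73% of 223 against 10.3% of all probes. The first group held Bcl11a and Gm3194 (above), Homer2, Rab3c, Cntn5 and Gm1673.

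Homer2 encodes a scaffold protein of the postsynaptic density. Its log2 ratio was 0.27 and 0.32 with LIF, reached 1.11 and 0.94 at 48 h and 1.52 and 1.81 at 120 h, in steps without overlap between groups. It rose by 1.38 at 120 h (SE 0.21, limma adjusted p = 0.0015), and the 48 h change of 0.73 did not pass (limma adjusted p = 0.074). Rab3c and Cntn5 are also known from neurons, the first as a small GTPase of synaptic vesicles and the second as an adhesion protein. Cntn5 was not well above background with LIF (1.86 and 0.05), reached 3.19 and 3.03 at 120 h, and was at least 3.19-fold higher there (limma adjusted p = 0.034). The call was lost without replicate 2 with LIF, without either 120 h array and with slide as a random block (limma adjusted p = 0.058), and after normexp and loess the change was 0.45. A gene on the other strand, Gm32710, overlaps the Cntn5 probe. Rab3c was near background in Oct4VP2, with 1 array of 6 well above it, so no fold is given. It stood at -5.47 and -4.31 with LIF, at -4.95 and -5.35 at 48 h and at -2.98 and -3.90 at 120 h, a measured change of 1.45 (limma adjusted p = 0.022) that was -0.0025 after normexp background correction and lost its call without replicate 1 with LIF or replicate 1 at 120 h. Gm1673, a predicted gene, rose by 1.17 (SE 0.36, limma adjusted p = 0.035), a call lost without any one of the 4 arrays compared and, at 0.78, after normexp and loess.

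Among the 9 placed genes that fell at 120 h was Plet1, a surface protein of trophoblast progenitors. It stood at 2.18 and 3.19 with LIF, at 1.02 and 1.42 at 48 h, and at 1.85 and 0.39 at 120 h. The groups with and without LIF did not overlap, and the 120 h arrays lay further apart than those of the other times. Plet1 fell by 1.57 at 120 h (SE 0.43, limma adjusted p = 0.025). That call was not made with the replicate number as a block (limma adjusted p = 0.052), with slide as a random block, with the 6 Oct4VP2 arrays or the first scan session alone, without replicate 2 with LIF or without replicate 2 at 120 h. Gnl3, the nucleolar GTP-binding protein nucleostemin of stem and dividing cells, went from 2.75 and 2.29 with LIF to 1.67 and 1.82 at 48 h and 1.34 and 1.57 at 120 h. It fell by 1.06 at 120 h (SE 0.31, limma adjusted p = 0.031), and the call was lost without replicate 1 with LIF, without either 120 h array, with slide as a random block (limma adjusted p = 0.054), with Cy3 alone and after normexp and loess. Pitpnm2, a phosphatidylinositol transfer protein, fell by 1.24 (SE 0.22, limma adjusted p = 0.0034) and the noncoding Gm36449 also by 1.24 (SE 0.21, limma adjusted p = 0.0026). Glyctk, a glycerate kinase, fell by 1.30 (SE 0.26, limma adjusted p = 0.0053), a call lost without replicate 2 with LIF. Frg2f1 fell by 1.57 (SE 0.28, limma adjusted p = 0.0034), and its family also holds close copies. Cfap410, a protein of cilia, fell by 1.18 (limma adjusted p = 0.027), and the histone H2ac18, one of many near-identical H2A genes, by 1.01 (limma adjusted p = 0.033). Both calls were lost without replicate 1 with LIF or without either 120 h array, and that of H2ac18 also with slide as a random block (limma adjusted p = 0.064), with Cy3 alone and after normexp and loess, where its change was -0.29. The ninth, the olfactory receptor Olfr615, was below background at both times, and its measured change of -1.41 (limma adjusted p = 0.021) was lost without the same arrays and with Cy3 alone, and was -0.10 after normexp and loess. After that correction the changes of Pitpnm2, Gm36449, Frg2f1 and Glyctk were -0.60, -0.69, -0.70 and -0.52, each under 2-fold, so that these 4 calls ended too. The calls of Bcl11a, Homer2 and Gm3194 at 120 h held under every alternative that was run for them.

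Of the marker lists, the 4 tested genes did not pass at either time. Rpl10a, a ribosomal protein, changed by 0.16 at 120 h (limma adjusted p = 0.74), and the actin Acta2 by -0.20 (limma adjusted p = 0.70), on a probe above background on 1 of the arrays with LIF. Tyms, thymidylate synthase, changed by -0.52 (limma adjusted p = 0.21) and Srgn, the proteoglycan serglycin, by -0.57 (limma adjusted p = 0.037), which is under 2-fold. In a culture of mixed cells, fewer cells of a type and less RNA per cell cannot be told apart for any of these probes.

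**Figure D2:**
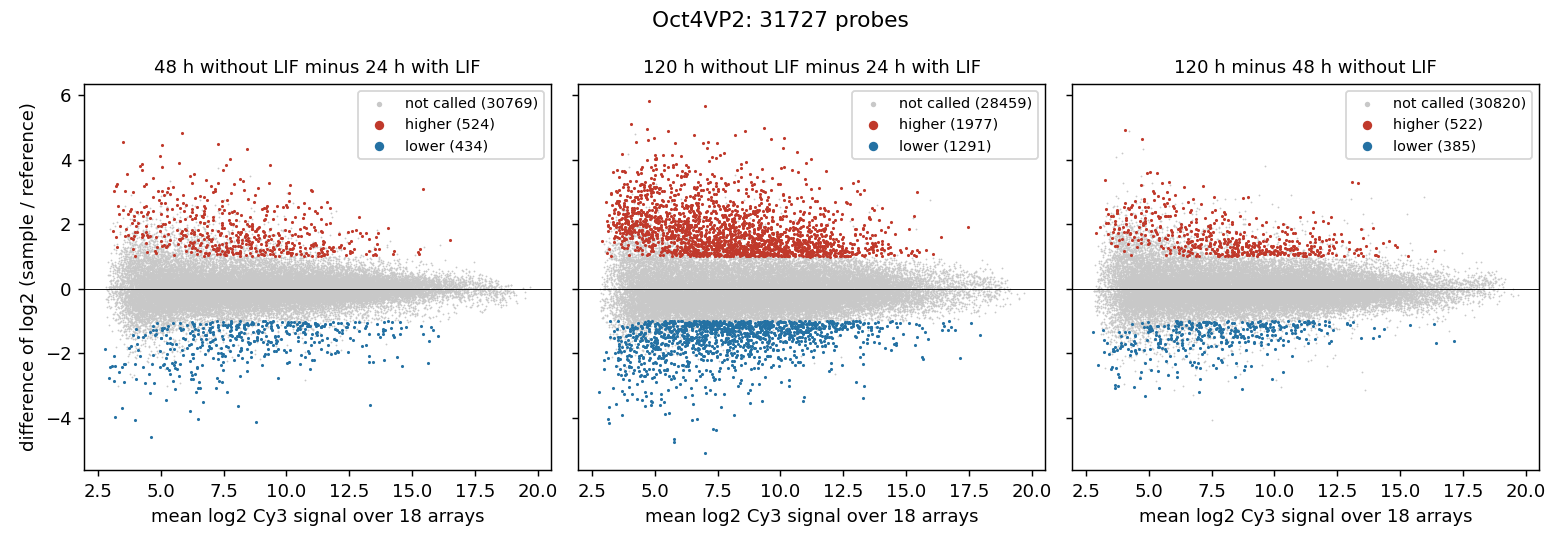
Difference of log2 ratio between Oct4VP2 groups (vertical axis) against the mean log2 Cy3 signal over 18 arrays (horizontal axis), for 31727 probes in 3 comparisons. Red and blue points are called probes, and the 120 h panel holds 1977 higher and 1291 lower ones. The spread widens towards dim probes, and few of the brightest probes were called.

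Of the 4 probes with the largest differences at 120 h, 3 were not well above background on either array of one group. Z00057645-1 stood at -2.32 and -1.73 with LIF and at 4.43 and 3.15 at 120 h, at least 8.27-fold higher (limma adjusted p = 0.011), a call lost without replicate 1 with LIF or replicate 1 at 120 h and after normexp and loess. Z00022675-1 rose from -6.04 and -5.07 with LIF over -2.71 and -2.0 at 48 h to 0.71 and -0.51 at 120 h, at least 13.7-fold (limma adjusted p = 0.00093). Both its groups without LIF lay above the arrays with LIF. The largest fall was that of Z00065618-1, from 3.62 and 2.41 with LIF over 1.95 and 0.32 to -1.67 and -2.45 at 120 h, a fall of 5.08 (SE 0.55, limma adjusted p = 0.00026). It was well above background on 1 of the 2 arrays at 120 h. Z00057519-1 went from 3.11 and 4.61 to -1.18 and -0.58, at least 8.81-fold lower (limma adjusted p = 0.0022). Across the comparison, 376 of the 1977 higher probes were not well above background with LIF, 96 of the 1291 lower ones not at 120 h, and 21 called probes in neither group. In 4 equal bins of mean Cy3 signal, from dimmest to brightest, 11.7%, 13.7%, 11% and 4.77% of the probes were called at 120 h.

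Between 48 h and 120 h without LIF, 522 probes rose (1.65%) and 385 fell (1.21%), together 2.86%, and the Cy5 channel gave 1 call. The noncoding Gm33611 and Frg2f1 were the placed probes that fell, by 1.05 (SE 0.22, limma adjusted p = 0.024) and by 1.06 (SE 0.28, limma adjusted p = 0.049), and Rab3c had a measured change of 1.71 (limma adjusted p = 0.031), lost without either 48 h array, replicate 1 at 120 h or either ZHBTc4 array with LIF, with slide as a random block (limma adjusted p = 0.068) and, at 0.24, after normexp and loess. Gm33611 stood at 0.20 and -0.04 at 48 h and at -0.89 and -1.06 at 120 h. It was lost without any single one of those 4 arrays and, at -0.54, after normexp and loess. Frg2f1 lay at the threshold and was lost in 19 of its 29 alternatives, among them leaving out any one of the arrays at 48 h or 120 h of Oct4VP2 or Oct4, any LIF array of the other lines, or either ZHBTc4 array at 48 h. Z00047251-1 fell most, from 4.98 and 4.99 at 48 h to 2.84 and 0.48 at 120 h, by 3.33 (SE 0.71, limma adjusted p = 0.025). Z00065618-1 (above) followed with a fall of 3.20 (SE 0.55, limma adjusted p = 0.013). Both groups of each of these probes were separate, though the Z00047251-1 arrays at 120 h lay far apart. Z00028437-1 and Z00048809-1 were below background at 48 h. At 120 h the first stood at 5.71 and 4.12 and the second at 6.32 and 3.06, so the arrays lay far apart. By the mean of the 120 h arrays they were at least 5.82-fold and 5.02-fold higher (limma adjusted p = 0.043 and 0.022). A single array can lie below that bound.

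The count of the step also depended on the fit. The 24 h and 48 h arrays shared a slide and the 120 h arrays lay on another, so slide and the late group cannot be told apart. With slide as a random block, 222 probes rose and 176 fell, with a correlation of 0.13 between arrays of a slide. With the 6 Oct4VP2 arrays alone limma called 0 probes, while 7043 had an unadjusted p under 0.05. The total of 907 became 133 without replicate 1 at 48 h, 306 without replicate 2 at 48 h, 345 without replicate 1 at 120 h and 575 without either one of the ZHBTc4 arrays with LIF. Each of Z00047251-1, Z00065618-1, Z00048809-1 and Z00028437-1 lost its call when replicate 1 at 48 h was left out. So did Z00047251-1 without replicate 2 at 48 h or at 120 h, Z00065618-1 without replicate 2 at 120 h, and Z00048809-1 without replicate 2 at 48 h or replicate 1 at 120 h. Z00028437-1 lost it in 21 of 28 alternatives, among them leaving out any one array other than the LIF arrays of Oct4, and with the replicate number as a block.

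Over the whole course, 3362 probes (10.6%) varied between the 3 Oct4VP2 groups by limma's moderated F test, with an adjusted p under 0.05 and a range of group means of at least 2-fold. Their means rose in time order in 1412 probes, 42% of them against 21.6% of all probes tested, and fell in time order in 900, 26.8% against 27.2%. The 48 h mean was the highest in 483, as for Bcl11a, and the lowest in 567, as for Lamb2. Each of the 4 orders with 48 h at an end was rarer among the probes that varied than among all probes. With 48 h highest they made up 5.92% and 8.45% against 14.8% and 11.2%, and with 48 h lowest 9.07% and 7.79% against 12.3% and 12.8%. Orders are of the means alone, and neighbouring means need not differ beyond their spread.

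**Figure D3:**
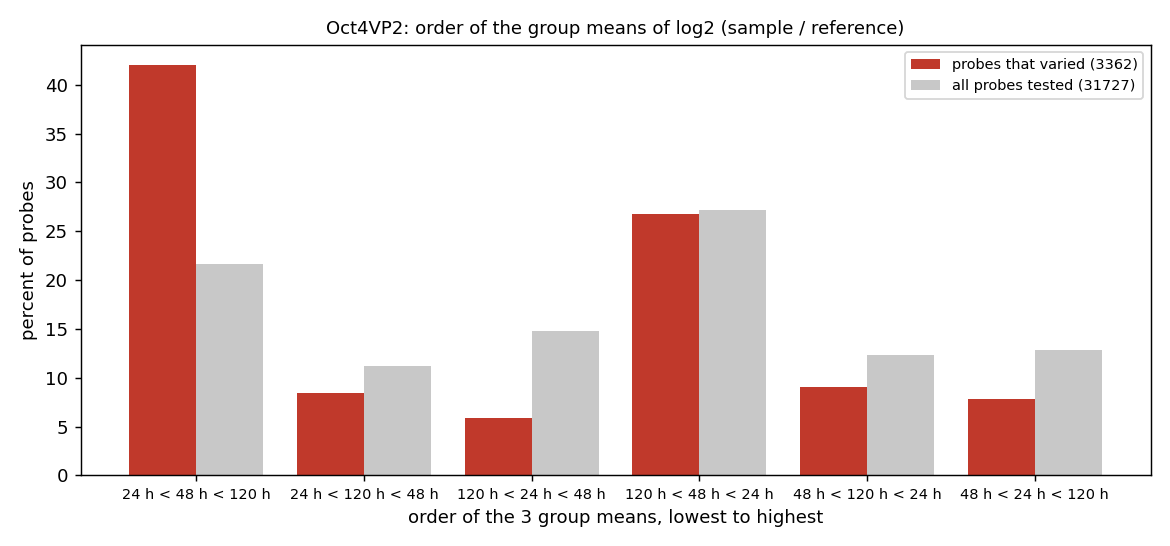
Percent of probes (vertical axis) with each order of the 3 Oct4VP2 group means (horizontal axis), for the 3362 probes that varied (red) and for all 31727 tested (grey). A steady rise is the most frequent order among the probes that varied, at 42% against 21.6% of all probes.

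The Oct4VP2 change was then set against that of the other lines. The test of the difference itself, in limma's fit of all arrays, called 200 probes with a more positive (0.63%) and 301 with a more negative 48 h change (0.949%) in Oct4VP2 than in Oct4, together 1.58%. Against ZHBTc4 they were 344 and 318 (1.08% and 1%, together 2.09%). At 120 h the change differed from that in Oct4 in 2462 probes upward and 2840 downward (7.76% and 8.95%), and from that in ZHBTc4 in 2222 and 2461 (7% and 7.76%). For the step from 48 h to 120 h the counts were 1549 and 1210 against Oct4 (4.88% and 3.81%, together 8.7%), and 1418 and 1426 against ZHBTc4 (4.47% and 4.49%, together 8.96%). With normexp and loess the split at 48 h was 355 and 308 against Oct4 and 642 and 331 against ZHBTc4, and with Cy3 alone the split at 120 h against Oct4 was 3217 and 2316. In the Cy5 channel the same test called 8 probes against Oct4 and 5 against ZHBTc4 at 48 h. At 120 h it called 243 (194 of them upward) and 186, and for the step 56 and 104.

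The arrays with LIF of the other lines were scanned in the second of 2 sessions and all Oct4VP2 arrays in the first, so a difference of a change from 24 h also spans sessions. Among the comparisons with Oct4, the step is free of this, and the first session alone gave 1302 and 959 differences against Oct4. Against ZHBTc4 it gave 486 and 474, with 1 ZHBTc4 array a time. The 48 h differences rested on single arrays. Against Oct4 the total of 501 became 84 without replicate 1 and 1160 without replicate 2 of Oct4 with LIF, 109 without replicate 1 of Oct4 at 48 h, 86 and 133 without replicates 1 and 2 of Oct4VP2 at 48 h, 329 without replicate 1 of Oct4VP2 with LIF, and 244 without either ZHBTc4 array with LIF. Against ZHBTc4 the total of 662 became 47 and 49 without replicates 1 and 2 of ZHBTc4 with LIF, 73 without replicate 1 of ZHBTc4 at 48 h, 149 and 165 without replicates 1 and 2 of Oct4VP2 at 48 h, and 334 without replicate 2 of Oct4VP2 with LIF. For the step, the 2759 differences from Oct4 became 1647 without replicate 2 of Oct4 at 48 h, and the 2844 from ZHBTc4 became 1798 without replicate 1 of ZHBTc4 at 48 h.

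Of the 215 placed genes, taking the brightest probe of each, 29 differed in the 120 h change between Oct4VP2 and Oct4 (13.5%, against 16.7% of all probes) and 19 between Oct4VP2 and ZHBTc4 (8.84%, against 14.8%). Bcl11a had the most positive difference in both. It rose in all 3 lines at 48 h, to 2.04 and 2.12 in Oct4 and to 2.34 and 2.28 in ZHBTc4. At 120 h it had dropped to -0.43 and -0.35 in Oct4 and to -0.73 and -1.34 in ZHBTc4, below the 24 h arrays of those lines, while both Oct4VP2 arrays stayed above those of their own 24 h group. The 120 h change differed by 3.07 from Oct4 (SE 0.42, limma adjusted p = 0.001) and by 3.61 from ZHBTc4 (SE 0.42, limma adjusted p = 0.00037). The 24 h level of Bcl11a was lower in Oct4VP2 than in the other lines, where it stood between 0.55 and 0.75. Homer2 was also lower at 24 h in Oct4VP2, and it went from 1.66 and 1.55 to 0.28 and 0.95 at 120 h in ZHBTc4. Its 120 h change in Oct4VP2 differed by 2.36 from that line (SE 0.30, limma adjusted p = 0.00055). In Oct4 the probe went up too, from 1.35 and 1.51 to 1.80 and 2.03 at 120 h. The 120 h difference from Oct4 was under 2-fold. Against Oct4 the Homer2 step differed by 1.25 (limma adjusted p = 0.021), which was lost with slide as a random block, without replicate 2 of Oct4VP2 at 48 h or at 120 h, without either Oct4 array at 48 h or without replicate 1 of Oct4 at 120 h.

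Lamb2 rose between 48 h and 120 h in the other lines, to -0.33 and -0.31 in Oct4 and to -1.13 and -1.07 in ZHBTc4. In Oct4VP2 it also went up, by under 2-fold, from -2.91 and -2.90 to -2.07 and -2.39. Both Oct4VP2 arrays at 120 h stayed below those with LIF. Its 120 h change differed by -2.64 from Oct4 (SE 0.27, limma adjusted p = 0.00022) and by -1.89 from ZHBTc4 (SE 0.27, limma adjusted p = 0.001). Tmc4, a transmembrane channel-like protein, stood at -0.99 and -1.21 in Oct4VP2 with LIF and at -0.82 and -1.30 at 120 h, with overlapping groups and a change of 0.04 (limma adjusted p = 0.9). It rose by 1.77 in Oct4 and by 2.63 in ZHBTc4. The difference from ZHBTc4 was -2.59 (SE 0.24, limma adjusted p = 0.00015). Zbtb8a, a zinc finger protein with a BTB domain, went from 1.79 and 1.61 to 0.84 and 0.84 in Oct4VP2, a change of -0.86 that is under 2-fold (limma adjusted p = 0.0082), and it fell by 2.85 in ZHBTc4. The difference from ZHBTc4 was 1.99 (SE 0.26, limma adjusted p = 0.00071). In Oct4 the probe also fell, from 2.09 and 2.43 to 0.76 and 0.37, and the difference from Oct4 was under 2-fold. These differences of Bcl11a, Homer2 from ZHBTc4, Lamb2, Tmc4 and Zbtb8a at 120 h kept their calls in every alternative run for them.

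Others in the same ranking were less firm. The noncoding Gm11423 rose by 3.52 in Oct4 and by 2.38 in ZHBTc4 from arrays below background, while its change in Oct4VP2 was -0.32 (limma adjusted p = 0.63). It differed by -3.83 from Oct4 (limma adjusted p = 0.0017) and by -2.70 from ZHBTc4 (limma adjusted p = 0.0099), and neither call was made after normexp and loess. Plet1 reached 4.90 and 4.82 in Oct4 at 120 h, and its change differed by -2.29 between Oct4VP2 and Oct4 (limma adjusted p = 0.021), lost without replicate 2 of Oct4VP2 with LIF or at 120 h, or without replicate 1 of Oct4 with LIF or at 120 h. Gm14393 fell by 2.05 in Oct4 and changed by -0.07 in Oct4VP2, and Fam71e2 changed by 1.00 in Oct4VP2 and fell by 1.13 in Oct4. Their differences of 1.98 and 2.14 (limma adjusted p = 0.032 and 0.019) were lost with scan session as a block, without replicate 2 of Oct4VP2 with LIF, without replicate 1 of Oct4VP2 at 120 h, and without replicate 1 of Oct4 at 120 h. The first was also lost without replicate 2 of Oct4 with LIF or at 120 h, and the second without replicate 1 of Oct4 with LIF. Rab3c, Olfr615, Gm6592 and 0610005C13Rik completed the ranking, on probes for which at most 1 of the 4 groups compared was well above background on both arrays.

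In Oct4 itself 3.27% of the probes were higher and 2.22% lower at 48 h, 12.3% and 10.1% at 120 h, and 9.51% and 10.1% in the step. In ZHBTc4 the shares were 4.31% and 3.22%, 13% and 10.4%, and 8.26% and 7.27%. Probes that changed in both of these lines were followed in Oct4VP2. The Oct4VP2 values are in neither of the changes that chose them, but its arrays entered the shared spread behind the adjusted p and the filter on dim probes. At 48 h, 440 probes were higher in both Oct4 and ZHBTc4, with median changes of 1.63 and 1.85, and their median in Oct4VP2 was 0.88. Of these, 124 also rose in Oct4VP2 (28.2%, against 1.65% of all probes) and 1 fell. The 354 probes lower in both, with medians of -1.65 and -1.68, had a median of -0.60 in Oct4VP2, where 85 fell (24%, against 1.37%) and 3 rose. At 120 h, the 2259 probes higher in both (medians 1.79 and 1.85) had a median of 0.68 in Oct4VP2, where 678 rose (30%, against 6.23%) and 22 fell. The 1775 lower in both (medians -1.85 and -1.89) had a median of -0.51, and 333 fell (18.8%, against 4.07%) and 37 rose. For the step, 1364 probes that rose in both had medians of 1.77 and 1.66, and 0.51 in Oct4VP2, while 1396 that fell had -1.87 and -1.76, and -0.38 in Oct4VP2.

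In each of these 6 sets the medians of the other lines were taken from the values that chose the probes, which raises their size, and the Oct4VP2 medians were not. The arrays with LIF of Oct4 and ZHBTc4 were scanned in another session than all Oct4 arrays and 1 ZHBTc4 array a time without LIF. Their 48 h and 120 h changes thus span sessions, while those of Oct4VP2 lie within 1 session. The steps of Oct4 and Oct4VP2 do not span sessions. What this adds to the medians was not tested. The sets were not tested as sets. After normexp and loess the medians were 0.93, 0.99 and, in Oct4VP2, 0.28 for the set higher at 48 h, and 1.21, 1.20 and 0.31 for the one higher at 120 h. For the set lower at 120 h they were -1.13, -1.23 and -0.31, and for the one that rose in the step 1.22, 1.18 and 0.32. Read the other way, 181 of the 524 probes higher at 48 h in Oct4VP2 were also called higher in Oct4, which is 34.5% of the first list and 17.4% of the second, and 109 of the 434 lower ones were lower in Oct4 (25.1% and 15.5%). At 120 h, 849 of the 1977 higher probes were higher in Oct4 (42.9% and 21.8%) and 116 were lower there.

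**Figure D4:**
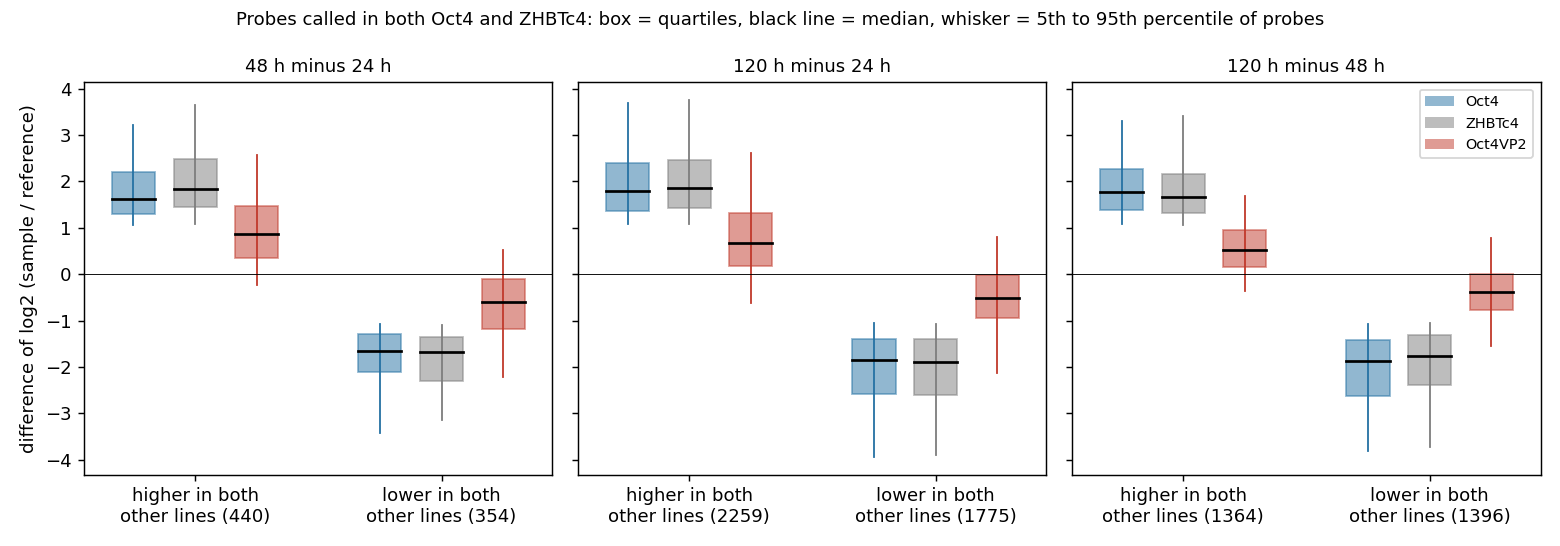
Change of log2 ratio (vertical axis) in Oct4, ZHBTc4 and Oct4VP2 for probes called in the same direction in both Oct4 and ZHBTc4 (number in parentheses), for 3 comparisons. Boxes show quartiles of the probes, black lines medians and whiskers the 5th to 95th percentile; the 2259 probes higher in both lines at 120 h have medians of 1.79, 1.85 and 0.68.

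Some probes differed between the replicates of Oct4VP2 at all 3 times. With the replicate number as a block within each line, 282 probes (0.889% of 31727) differed between replicates 1 and 2 of Oct4VP2 with a limma adjusted p under 0.05 and at least 2-fold, 137 higher in replicate 1 and 145 in replicate 2. In Oct4 and ZHBTc4 limma called 0 probes in this way, with 2085 and 3477 at an unadjusted p under 0.05, against 4188 in Oct4VP2. Z00034738-1 was well above background on all 6 arrays and stood at -0.14, -0.07 and -0.29 in replicate 1 at 24 h, 48 h and 120 h, against 3.81, 3.99 and 3.69 in replicate 2. The difference was -4.00 (SE 0.08, limma adjusted p = 1.1e-06), and no value of one replicate came near the other's. Z00034732-1 ran the other way, at 0.17, 0.13 and -1.78 in replicate 1 and at -3.46, -3.55 and -5.72 in replicate 2 (difference 3.75, SE 0.24, limma adjusted p = 0.00051). Of the 282 probes, 2 were also called at 48 h and 20 at 120 h, where 3.02% and 10.3% of all probes tested were called. The 282 were chosen for a large difference between replicates, which widens the spread within groups. These counts are therefore not a result about them. Over all probes the difference between replicates at 24 h correlated with that at 48 h (r = 0.28) and at 120 h (r = 0.18), and 48 h with 120 h (r = 0.30), each over at least 31704 probes, where the first pair shares a slide. In the other lines the corresponding r lay between -0.11 and 0.09 in Oct4, and in ZHBTc4 it was 0.39 between 48 h and 120 h, above every Oct4VP2 pair, and -0.05 and -0.03 for the pairs with 24 h. At 48 h and 120 h, replicate 1 of ZHBTc4 lay on another slide and in another scan session than replicate 2. Slide, session and clone thus cannot be told apart in that r of 0.39. In Oct4VP2 both replicates of a time lay on the same slide. Whether the lines differ in this correlation was not tested.

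**Figure D5:**
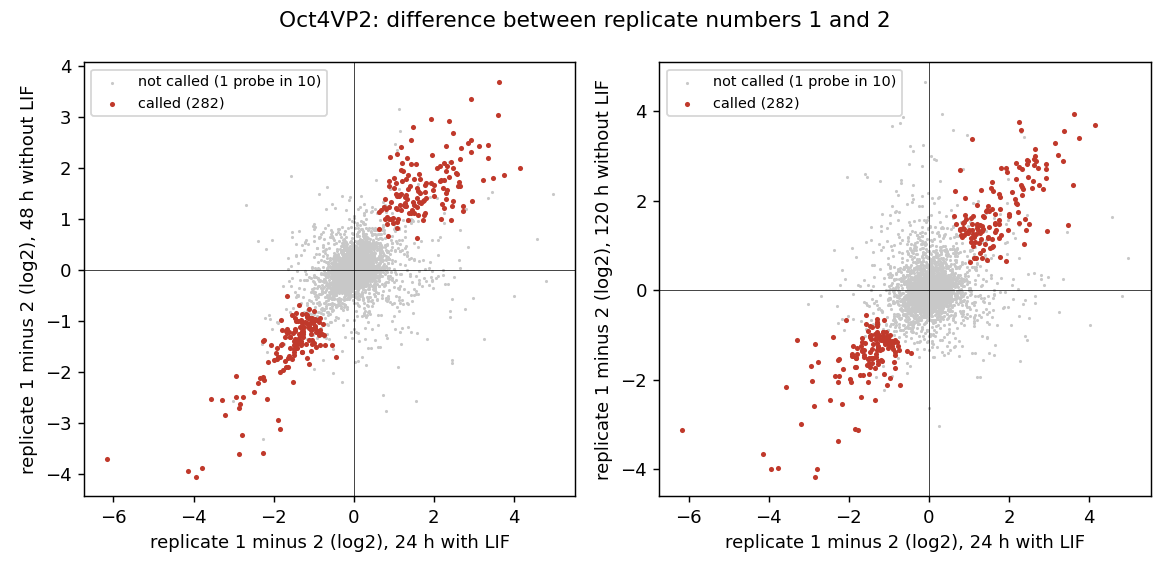
Log2 ratio of replicate 1 minus replicate 2 of Oct4VP2 at 24 h (horizontal axes) against 48 h (left) and 120 h (right). Red points are the 282 probes chosen by this difference over the 3 times together, and grey points are 1 in 10 of the others.

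Probes that share sequence were compared with each other. Among tested probes, 647 pairs overlapped end to end by at least 25 bases, with a median overlap of 45. Their changes correlated across pairs with r = 0.72 at 48 h, 0.86 at 120 h and 0.84 for the step, and the pairs share sequence and arrays. Where at least 1 probe of a pair was called, both had the same sign in 17 of 18 pairs at 48 h, in 88 of 88 at 120 h and in 26 of 26 for the step. Such pairs were picked for a large change on shared sequence and arrays, so a shared sign was likely beforehand. Both probes were called in the same direction in only 10, 46 and 15 of these pairs. Probes that rose were poorer in G and C. Their median GC content was 41.7% at both 48 h and 120 h, against 45% in the probes that fell and in all tested. A polyadenylation signal (AATAAA or ATTAAA, searched on the probe strand only) stood in 14.3% of the probes higher at 48 h, 10.8% of those lower and 10.3% of all. At 120 h it stood in 11.4% of the higher and 12.7% of the lower probes, and in the step in 10.9% of those that rose and 16.9% of those that fell. The share was thus higher among the risers at 48 h and among the fallers in the other comparisons, and it was not tested.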

How the data were processed

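The deposited files are scanner output of Agilent Feature Extraction 9.5.1.1, per the file headers, and give the intensity of each spot in both channels, background-subtracted and dye-normalised by the software in its processed signals. The authors' deposited value table of 25030 probes is on a log10 scale. After centring each probe, 100% of its values lay within 0.001 of the log10 ratio of processed signals, sample over reference, so scale and direction are known and a constant per probe is not. Its column medians lie between 2.33 and 2.36. Cy3 held the sample on every array, without dye swaps.

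Here, log2 ratios of processed Cy3 over Cy5 signals were used. Flagged spots were dropped and spots of a probe averaged. With limma 3.58.1 a mean was fitted for each of the 9 groups over the 18 arrays (R 4.3.3; 9 residual and 2.15 prior degrees of freedom), so all groups share one spread. P-values were Benjamini-Hochberg adjusted over 31727 probes. Folds written as "at least" set the brighter group's mean Cy3 level, after Aquantile scaling, against the lowest signal well above background. They bound the mean of the group, and a single array can lie below them. No saturated spot occurs among the named probes. The fit was also run on simulated data with independent noise on each array. Those data held no slide, session or clone effect, so they cannot speak to such dependence.

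The members, lists and rules were chosen with earlier results of these data known. Names were to come from protein matches, and no protein table was used here. Placement by gene-start windows, added after the files were read, replaced it. Named are all placed genes past the threshold in an Oct4VP2 comparison, the 4 most positive and 4 most negative differences of the 120 h change against each line, tested list members, and 2 probes in each direction per comparison. The example probes of the replicate difference were chosen after their values were seen. Sequences were to be printed for coding probes only; 30-base stretches of placed probes are printed instead, none from chromosome 18. Same-numbered Oct4VP2 arrays deviated together (r from 0.18 to 0.30 for every pair of groups), and the replicate number was taken to mark a clone. The labels do not say that it does, and the same arrays entered the test between replicates. That the number marks a clone is thus an assumption and was not tested.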

Additional observations from a re-analysis of the deposited data

Results flagged for a closer look

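Changes were compared between lines by testing their difference in the fit. The 48 h change of Oct4VP2 differed from that of Oct4 in 501 probes and from that of ZHBTc4 in 662, the 120 h change in 5302 and 4683, and the step from 48 h to 120 h in 2759 and 2844.

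For placed genes the same test gave these log2 differences, Oct4VP2 minus the other line, each past the threshold. Against Oct4 the 120 h change differed by 3.07 in Bcl11a, 2.35 in Rab3c, 2.14 in Fam71e2 and 1.98 in Gm14393, and by -3.83 in Gm11423, -2.64 in Lamb2, -2.44 in Olfr615, -2.29 in Plet1, -1.71 in H2ac18, -1.20 in Gm36449 and -1.15 in Pitpnm2. Pitpnm2 also differed at 48 h, by -1.45. Against ZHBTc4 it differed by 3.61 in Bcl11a, 3.56 in 0610005C13Rik, 2.36 in Homer2, 1.99 in Zbtb8a and 1.46 in Gm3194, and by -2.70 in Gm11423, -2.59 in Tmc4, -2.32 in Gm6592, -1.89 in Lamb2, -1.49 in Frg2f1 and -1.33 in Pitpnm2.

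For the step from 48 h to 120 h the differences from Oct4 were 4.18 in Rab3c, 1.57 in Bcl11a, 1.25 in Homer2, -1.52 in Lamb2 and -2.18 in Plet1. From ZHBTc4 they were 3.25 in Rab3c, 2.45 in Bcl11a, 2.16 in Homer2, -1.07 in Lamb2, -1.37 in Frg2f1 and -1.56 in Gm33611. After normexp and loess the step differences of Rab3c were 0.12 from Oct4 (limma adjusted p = 0.71) and 0.34 from ZHBTc4 (limma adjusted p = 0.2), and its probe was well above background on 1 of the 6 Oct4VP2 arrays. For the 120 h differences of Rab3c, Olfr615, Gm6592 and 0610005C13Rik, at most 1 of the 4 groups compared was well above background on both arrays. Single arrays ended several of these calls. Leaving out 1 of the 8 arrays behind the 120 h difference from Oct4 ended it for Gm36449 (replicate 1 of Oct4VP2 at 120 h or of Oct4 with LIF), H2ac18 (replicate 1 of Oct4VP2 with LIF or of Oct4 at 120 h) and Pitpnm2 (any array but replicate 1 of Oct4VP2 with LIF and replicate 2 of Oct4VP2 at 120 h). For that from ZHBTc4 it did so for Pitpnm2 (replicate 1 of ZHBTc4 with LIF), 0610005C13Rik (replicate 2 of Oct4VP2 with LIF, replicate 1 of Oct4VP2 or ZHBTc4 at 120 h, replicate 1 of ZHBTc4 with LIF), Frg2f1 (any but replicate 2 of ZHBTc4 at 120 h and replicate 1 of Oct4VP2 with LIF) and Gm3194 (any but replicate 2 of Oct4VP2 and of ZHBTc4 at 120 h and replicate 2 of ZHBTc4 with LIF). The 48 h difference of Pitpnm2 was lost in 20 of 26 alternatives. For the step, the differences from Oct4 of Bcl11a and Plet1 were lost in 12 and 15 of 28 alternatives, and those from ZHBTc4 of Frg2f1 and Lamb2 in 18 and 7, in each case with single arrays of either line at 48 h or 120 h left out.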

How the results depend on the processing

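Counts of called probes moved by more than 1.5 times in these alternatives, and the cause was not tested unless stated. With normexp and loess the counts were 570 at 48 h, 1475 at 120 h, 486 for the step and 3368 for the 120 h difference from Oct4. The deposited value table, with fewer probes (19438), gave 3519 for the last. Cy3 alone gave 1452 for the step and 1034 for the 48 h difference from ZHBTc4, which was 357 without a filter and, as a block, scan session gave 383. The 6 Oct4VP2 arrays alone, with fewer arrays for the spread, gave 132 at 48 h and 0 for the step. Slide as a random block gave 398 for the step, 308 for the 48 h difference from Oct4 and 1624 for the step difference from Oct4, and the first session alone, with fewer arrays, gave 960 for that from ZHBTc4. Leaving out single arrays gave 486 to 1018 at 48 h, 2438 to 3431 at 120 h and 133 to 1014 for the step. For the differences it gave 84 to 1160 and 3957 to 5659 against Oct4 at 48 h and 120 h, 1647 to 2866 for the step, and against ZHBTc4 47 to 691, 3192 to 4826 and 1798 to 2972. The replicate block gave 1057, 3436 and 1082 for the 3 Oct4VP2 comparisons, within 1.5 times of the main counts. Among the probes named, it ended the 120 h call of Plet1, the step call of Z00028437-1, the 120 h difference of Gm3194 from ZHBTc4, the step difference of Plet1 from Oct4 and the 48 h difference of Pitpnm2 from Oct4. Of 67 results for named genes and probes, 34 lost their call and 2 turned after normexp and loess. Slide as a random block ended 16 calls, Cy3 alone 12 and the replicate block 5. The 6 Oct4VP2 arrays alone, without the spread of the other lines, ended 19 of the 33 that could be run on them. Rab3c turned after normexp and loess, to -0.0025 for the 120 h change and -0.34 for its difference from Oct4. Averaging the probes of a gene applied to Fam71e2 and Gm6592, with differences of 1.46 and -2.68. Dim probes limit folds to bounds, and 2 arrays a group limit every test.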
